A study of Mus musculus with 17 samples.

Results

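The comparison described here is that of rapamycin with no treatment in oocytes of 48-week-old mice. Its members were chosen by their labels and are 5 of the 17 libraries in the series, 3 from mice given rapamycin and 2 from untreated mice of the same age. All mice were wild-type CD1 females. The treated mice were injected intraperitoneally with rapamycin at 2 mg/kg for 40 weeks, starting at week 8, and are called rapamycin oocytes in the text. The 48-week females without treatment are called aged oocytes, and 2 libraries from untreated 4-week females, called young oocytes, entered the fit to help estimate the spread and are shown for scale. Every female received pregnant mare serum gonadotropin and then chorionic gonadotropin 46 to 48 h later, 10 IU of each at 48 weeks in both treated and untreated mice and 5 IU of each at 4 weeks. Cumulus cells were stripped with hyaluronidase, and about 10 oocytes held at metaphase II were lysed for each library. Polyadenylated RNA was copied into full-length cDNA by template switching, amplified and fragmented by tagmentation. The labels do not name a vehicle for the untreated mice, and they do not say whether libraries of a group came from separate animals, so p-values speak for the spread among the libraries, part of which may be technical.

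Rapamycin binds the small protein FKBP12, and the complex blocks the kinase mTOR within mTORC1, the complex that couples growth factors and amino acids to protein synthesis. mTORC1 promotes translation of mRNAs that begin with a run of pyrimidines, among them those of ribosomal proteins, and it restrains autophagy and the lysosomal transcription factors TFEB and TFE3. A fully grown oocyte is transcriptionally silent through maturation, so the mRNA in a metaphase II oocyte is what was stored during growth less what was degraded, and a library of a fixed number of cells cannot tell fewer transcripts per oocyte from less mRNA recovered.

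The 7 oocyte libraries held 3912163 to 8334873 counts assigned to genes, and a floor of 3 counts lay between 0.349 and 0.809 CPM (counts scaled to a common library total, with trimmed-mean factors). The library rapamycin 1 stood apart. Over genes, the correlation of its log2 CPM with any other library was 0.753 to 0.805, while pairs of the other 6 reached 0.885 to 0.979. It lay alone at one end of the first principal component, which carried 54.2% of the variance. The 10 most abundant genes took 23.5% of its counts, against 10.3% to 12.9% elsewhere. Rn45s, a precursor of ribosomal RNA, took 7.59% of its counts, against 0.885% to 3.11% elsewhere. The oocyte transcripts Gdf9, Bmp15 and Zp3 were present in every library and lowest in rapamycin 1. Gdf9, an oocyte growth factor, stood at 302, 4928 and 5617 CPM in rapamycin libraries 1 to 3, against 9232 and 8417 CPM in aged libraries. Summed lists of oocyte genes went both ways in rapamycin 1. Zona pellucida and oocyte-secreted factors summed to 3098 CPM there, against 15635 to 19933 CPM elsewhere. Maternal effect genes summed to 181640 CPM, against 88794 to 112240 CPM elsewhere. Their mean log2(CPM + 1), centred on the 7 libraries, was nevertheless lowest there (-0.70, against 0.04 to 0.22). Both fits, with all libraries and without rapamycin 1, are therefore used below, and fold changes with no fit named are from all libraries.

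With all libraries, edgeR called 0 of 10083 genes between rapamycin and aged oocytes at an adjusted p under 0.05 (0%), while 603 genes (5.98%) had an unadjusted p under 0.05, 331 higher (3.28%) and 272 lower (2.7%). DESeq2 called 11 of 10076 genes (0.109%), 8 higher (0.0794%) and 3 lower (0.0298%). Without rapamycin 1 the biological coefficient of variation was 28.1%, against 49.5% with it. In that fit edgeR called 6 of 10220 genes (0.0587%), 3 higher (0.0294%) and 3 lower (0.0294%). There, 1561 genes (15.3%) had an unadjusted p under 0.05, 768 higher (7.51%) and 793 lower (7.76%). DESeq2 called 170 of the 5068 genes to which it gave an adjusted p (3.35%), 66 higher (1.3%) and 104 lower (2.05%). The 6 genes were Sparc, Mtus2 and Gmnn, which rose, and Slc14a1, Kcng2 and Tktl2, which fell.

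Sparc encodes a secreted glycoprotein that binds collagen and is typical of matrix-producing cells. Its levels were 14.5, 17.9 and 13.9 CPM in the rapamycin libraries, against 0.809 and 0.899 CPM in the aged and 6.97 and 5.58 CPM in the young libraries. All 3 rapamycin libraries lay above all 4 others, rapamycin 1 among them. The log2 fold change over aged oocytes was 4.14 ± 0.55 (standard error; edgeR adjusted p = 0.522) with all libraries and 4.19 ± 0.51 (edgeR adjusted p = 0.0196) without rapamycin 1. DESeq2 called it higher with all libraries (adjusted p = 6.83e-05) and gave it no adjusted p without rapamycin 1. In the annotation of GRCm38 the gene lies on chromosome 11 from 55394500 to 55423183 on the minus strand.

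Mtus2 encodes a microtubule-associated protein that tracks growing plus ends. It stood at 89.2, 193 and 293 CPM in rapamycin oocytes, 25.6 and 37.1 CPM in aged oocytes and 325 and 332 CPM in young oocytes. The rapamycin and aged libraries did not overlap, and rapamycin 1 was the lowest of its group. The log2 fold change was 2.61 ± 0.56 (edgeR adjusted p = 0.730) with all libraries and 2.97 ± 0.30 (edgeR adjusted p = 0.00853) without rapamycin 1. DESeq2 called it in both (adjusted p = 0.00887 and 3.13e-17). The gene spans 147957320 to 148316065 on the plus strand of chromosome 5.

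Gmnn encodes geminin, which binds Cdt1 and keeps replication origins from being licensed again. Its mRNA was at 665, 294 and 251 CPM in rapamycin oocytes, against 67.9 and 79.1 CPM in aged and 360 and 348 CPM in young oocytes. Rapamycin 1 was the highest of all 7 libraries, and the 2 other rapamycin libraries lay between the aged and the young ones. The log2 fold change was 2.45 ± 0.51 (edgeR adjusted p = 0.730) with all libraries and 1.91 ± 0.23 (edgeR adjusted p = 0.0196) without rapamycin 1, and the adjusted p of DESeq2 was 0.00887 and 1.57e-10. It lies on chromosome 13 from 24751845 to 24761923 on the minus strand.

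Slc14a1, a urea transporter, had 0 counts in all 3 rapamycin libraries and in both young libraries, against 27.5 and 49.0 CPM in the aged libraries. With the 0 replaced by 3 counts over the group, its level was at least 223-fold lower in rapamycin oocytes, and at least 175-fold lower without rapamycin 1 (edgeR adjusted p = 0.522 and 0.00853). Kcng2, a silent subunit that modifies other potassium channels, was at 18.3, 1.79 and 1.81 CPM in rapamycin oocytes, against 234 and 84.7 CPM in aged and 2.62 and 1.05 CPM in young oocytes. Its log2 fold change was -4.50 ± 1.08 (edgeR adjusted p = 0.730) with all libraries and -6.42 ± 0.60 (edgeR adjusted p = 0.00853) without rapamycin 1. DESeq2 called Kcng2 lower in both (adjusted p = 0.0243 and 5.14e-28), did not call Slc14a1 with all libraries (adjusted p = 0.476) and gave it no adjusted p without rapamycin 1. Exons of Kcng2 overlap those of D330025C20Rik on the opposite strand, and no source used here gives the strand setting of the counting, which leaves its reads uncertain. Both genes were high in the aged libraries and low in young and rapamycin ones.

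Tktl2, a gene for a transketolase-like enzyme, had another order. It was at 15.9, 0.744 and 0.753 CPM in rapamycin oocytes, against 14.6 and 18.0 CPM in aged and 17.7 and 18.0 CPM in young oocytes. Rapamycin 1 lay with the aged and young libraries, so the log2 fold change of -4.39 ± 0.45 (edgeR adjusted p = 0.00853) belongs to the fit without it. With all libraries it was -1.55 ± 1.16 (edgeR adjusted p = 0.747, DESeq2 adjusted p = 0.759), and without rapamycin 1 DESeq2 gave no adjusted p. Of the 6 genes, this was the one whose rapamycin and aged libraries overlapped.

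**Figure D1:**
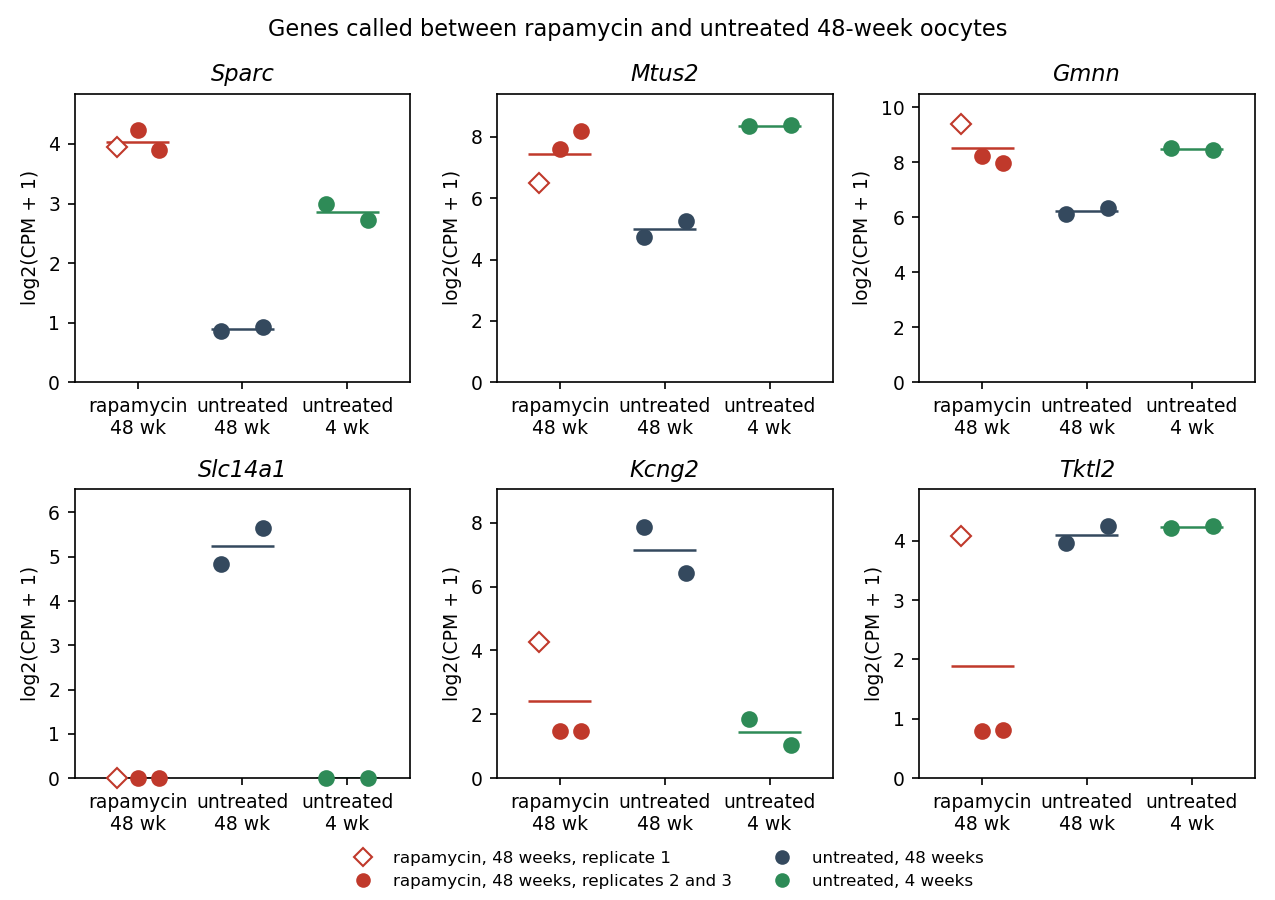
Level of the 6 genes that edgeR called without rapamycin 1, as log2(CPM + 1) on the vertical axis, in rapamycin, aged and young oocytes from left to right. Each point is 1 library, the open diamond is rapamycin 1 and the horizontal line is the group mean. Slc14a1 is at 0 in every rapamycin and young library, and only for Tktl2 does rapamycin 1 lie at the aged level.

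Other genes named by smallest unadjusted p, with no overlap between rapamycin and aged libraries, did not pass in edgeR in either fit. Caln1, a calcium-sensor protein of the Golgi, was at 37.9, 34.7 and 79.2 CPM in rapamycin oocytes and at 6.74 and 10.8 CPM in aged oocytes, and DESeq2 called it higher with all libraries (adjusted p = 0.00887). Got1, the cytosolic aspartate aminotransferase, was at 8.33, 14.7 and 11.5 CPM in rapamycin oocytes, 2.70 and 2.92 CPM in aged oocytes and 76.7 and 52.6 CPM in young oocytes. DESeq2 called it higher only without rapamycin 1 (adjusted p = 0.00213). Bcap29, a membrane protein of the endoplasmic reticulum, was at 31.2, 23.7 and 10.1 CPM against 2.70 and 4.27 CPM in aged oocytes (log2 fold change 2.62 ± 0.62, and 2.27 ± 0.52 without rapamycin 1). Among the 8 genes that DESeq2 called higher with all libraries were also Chst9, a sulfotransferase acting on sugar chains, and Clu, a secreted chaperone. Chst9 stood at 13.7, 8.93 and 6.93 CPM in rapamycin oocytes, against 0.809 and 0 CPM in aged oocytes.

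The genes of smallest p in the other direction were Chrdl1, Fancg, Stat3, Pgap2, Mtfr1, Cpsf1, Trmt10c and H6pd, none past the threshold in edgeR. Chrdl1, a secreted antagonist of bone morphogenetic proteins, was at 8.87, 4.32 and 4.52 CPM in rapamycin oocytes, against 43.4 and 48.3 CPM in aged and 3.70 and 11.1 CPM in young oocytes. DESeq2 called it lower with all libraries (adjusted p = 0.00887) and without rapamycin 1 (adjusted p = 4.17e-08). Stat3, a cytokine-activated transcription factor, was at 78.0, 94.4 and 88.4 CPM in rapamycin oocytes, a narrow range, against 256 and 179 CPM in aged oocytes, and DESeq2 called it lower without rapamycin 1 (adjusted p = 0.00337). Its exons overlap those of Stat5a on the opposite strand, so its reads are uncertain too. Fancg, of the Fanconi anaemia core complex that handles crosslinked DNA, was at 2.42, 2.38 and 3.31 CPM against 8.62 and 22.2 CPM in aged oocytes (log2 fold change -2.50 ± 0.53, and -2.43 ± 0.52 without rapamycin 1). Mitochondrial proteins were present here, with Mtfr1, which affects mitochondrial shape, at 5.38, 14.6 and 13.4 CPM against 46.1 and 34.6 CPM in aged oocytes. Trmt10c, a subunit of mitochondrial RNase P, was at 4.84, 12.2 and 12.8 CPM against 36.9 and 34.2 CPM in aged oocytes.

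Among genes that DESeq2 called only without rapamycin 1, were Ptpro, Hist1h2bc, Snapin, Med8, Atp6v1e1 and Krr1 higher and Steap4, Kctd20, Pabpn1l, Mid1 and Kifc3 lower. Ptpro, a receptor tyrosine phosphatase, was at 2.15, 4.47 and 13.9 CPM in rapamycin oocytes, 0.539 and 0.674 CPM in aged oocytes and 50.8 and 52.8 CPM in young oocytes. Krr1, a factor in assembly of the small ribosomal subunit, was at 34.4, 90.7 and 54.5 CPM in rapamycin oocytes against 13.7 and 25.6 CPM in aged oocytes. Steap4, a metalloreductase, was at 0.269, 7.74 and 7.68 CPM in rapamycin oocytes against 70.3 and 38.9 CPM in aged oocytes. Pabpn1l, a poly(A)-binding protein of oocytes that takes part in clearing maternal mRNA, was at 48.4, 249 and 450 CPM in rapamycin oocytes, 1773 and 736 CPM in aged oocytes and 293 and 485 CPM in young oocytes. None of these passed in edgeR. Of the other genes named in the text, exons of Atp6v1e1, Col3a1, Cpsf1, Ctsd, Ctsl, Cyp11a1, Eif2ak3, Ftl1, Gnl3, Gpr3, Icam1, Kctd20, Kifc3, Krr1, Mid1, Mlst8, Mrpl53, Nusap1, Optn, Pgap2, Pkmyt1, Prkab2, Prlr, Psmd3, Rpl35, Rpl5, Rps10, Rps18, Rps6kb1, Rptor, Scap, Snapin, Trp53bp1 and Tsc2 overlap those of another gene in the annotation, which leaves their counts uncertain. For Col3a1, Ctsd, Cyp11a1, Pgap2 and Prlr the other gene lies on the same strand, so their doubt does not depend on the strand setting. The rest carry the same doubt as Kcng2.

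Several of the transcripts higher in rapamycin oocytes are typical of somatic cells. Of all genes in the files, 8 had 0 counts in both aged libraries and at least 3 CPM in each rapamycin library, and 1, Slc14a1, had the opposite pattern. The 8 were Angptl4, Cd63, Col3a1, Cxcl1, Icam1, Igfbp6, Oaf and Thbd, which include a collagen chain of connective tissue, a chemokine, an adhesion molecule of activated cells and the endothelial receptor thrombomodulin. Without rapamycin 1 the counts were 12 and 2. Thbd stood at 5.91, 7.29 and 6.18 CPM in rapamycin oocytes, and Cxcl1, a neutrophil-attracting chemokine, at 4.03, 6.55 and 4.97 CPM, against 0 in both aged libraries. Cd63, a membrane protein of lysosomes and secretory vesicles, stood at 10.5, 3.57 and 4.07 CPM in rapamycin oocytes, and its level was at least 14.3-fold higher than 3 counts over the aged group (DESeq2 adjusted p = 0.0264, edgeR adjusted p = 0.730). The aged libraries were also shallow, with a floor of 3 counts at 0.809 and 0.674 CPM, so values near that floor could not be told from 0.

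Some genes of stroma and steroid-producing cells had the same order. Dcn, the matrix proteoglycan decorin, was at 5.38, 10.4 and 9.34 CPM in rapamycin oocytes, 0 and 1.35 CPM in aged oocytes and 3.70 and 4.77 CPM in young oocytes. Col1a1, the main chain of type I collagen, was at 13.4, 4.32 and 4.37 CPM in rapamycin oocytes, 0.270 and 0 CPM in aged oocytes and 0 and 1.51 CPM in young oocytes. Cyp11a1, which starts steroid synthesis from cholesterol in granulosa, theca and luteal cells, was at 7.26, 4.91 and 3.92 CPM in rapamycin oocytes, against 0.270 and 0.225 CPM in aged and 2.18 and 1.98 CPM in young oocytes. Gsn, an actin-severing protein that is in none of the cell type marker lists, was at 10.5, 14.3 and 12.1 CPM in rapamycin oocytes and 0 and 0.225 CPM in aged oocytes. The rapamycin and aged libraries did not overlap for any of these 4, an order that held for 11.7% of all genes tested. These genes were named for their small p, so the order is no separate result. None passed in edgeR (adjusted p = 0.730 for each with all libraries). The list of extracellular matrix and matricellular proteins, which holds Sparc and the collagens, was even. Of 18 members tested 9 lay above and 9 below 0 (median log2 fold change 0.04), with 8 above and 9 below without rapamycin 1 (median -0.04). Its summed level ran the other way, at 223, 873 and 963 CPM in rapamycin oocytes and 2133 and 1163 CPM in aged oocytes. Lamb1, a laminin chain, made up most of the sum in all libraries but rapamycin 1.

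Whole marker lists of other cell types were less uniform. Of 17 theca, stroma and luteal markers, 7 passed the filter on low counts, and over the whole list 13 had a higher mean in rapamycin oocytes, 1 a lower one and 3 were at 0 in both groups. Their summed level was 237, 145 and 152 CPM in rapamycin oocytes and 114 and 136 CPM in aged oocytes, and it included Prlr and Myh11, which were at 43.7 CPM or more and 58.0 CPM or more in the aged libraries. Of 26 cumulus and granulosa markers, 7 passed the filter, 19 had a higher mean in rapamycin oocytes, 3 a lower one and 4 were at 0. The sum was 239, 61.2 and 67.2 CPM in rapamycin oocytes and 59.8 and 71.7 CPM in aged oocytes, so that only rapamycin 1 exceeded the aged range. In that library Inha was at 77.2 CPM, Hsd3b1 at 73.7 CPM, Kitl at 45.2 CPM and Gja1 at 31.5 CPM, against at most 4.05, 6.54, 7.41 and 2.40 CPM in the other 6. Defining markers were at or near 0 at the same time. Pgr, of cumulus and granulosa cells after the ovulatory signal, and Lum, of stroma, were at 0 in all 7 libraries, and Fshr, the receptor for follicle-stimulating hormone in granulosa cells, was at 0 in the rapamycin libraries. At least 1 count was found for 18, 14 and 16 of the granulosa markers in rapamycin libraries, 8 and 10 in aged libraries and 16 and 14 in young libraries. Rapamycin 1 (4388650 counts) and aged 2 (4414109 counts) were of like depth, while rapamycin 2 and 3 were deeper (6343206 and 6085197 counts). The part of depth was not tested.

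Blood, immune and endothelial markers had 8 higher and 8 lower means with 10 at 0, and a summed level of 28.2, 91.9 and 138 CPM in rapamycin oocytes against 164 and 162 CPM in aged oocytes, mostly from Pecam1. Ovarian surface and oviduct markers summed to 31.7, 183 and 238 CPM in rapamycin oocytes and 502 and 250 CPM in aged oocytes, mostly from Cdh1, an adhesion molecule that oocytes express. The part of somatic RNA in the genes described above and in the gene lists below was not tested.

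**Figure D2:**
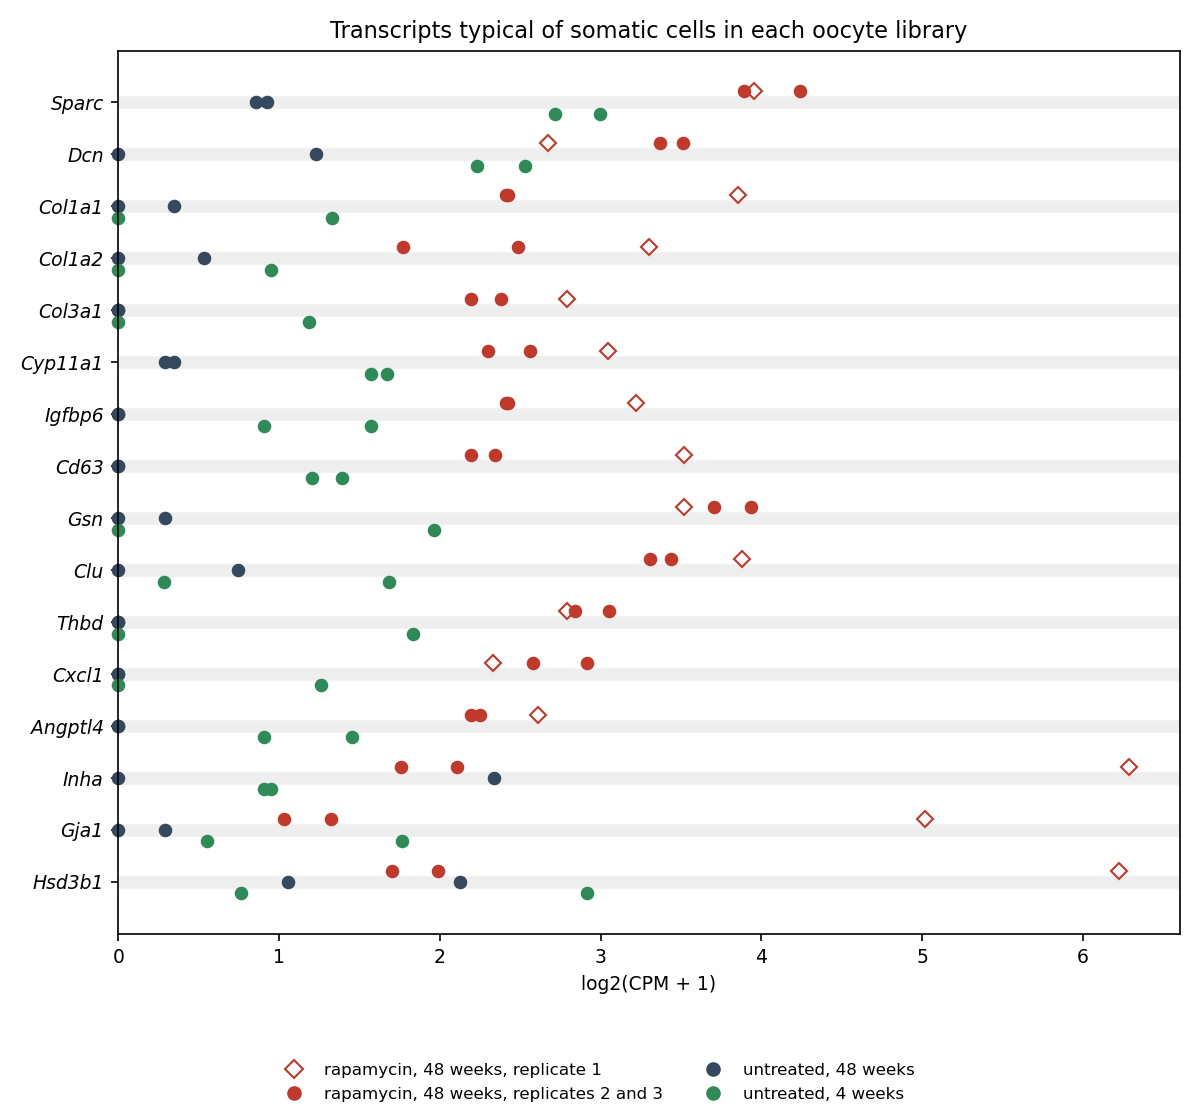
Level of 16 transcripts typical of somatic cells, as log2(CPM + 1) on the horizontal axis, with rapamycin libraries in the upper, aged in the middle and young in the lower line of each gene. Each point is 1 library and the open diamond is rapamycin 1. From Sparc to Angptl4 all 3 rapamycin libraries lie above both aged ones, while Inha, Gja1 and Hsd3b1 are high in rapamycin 1. The transcripts drawn were picked by small p, by a call or by these levels themselves, so their order is no separate result. Whole marker lists, described in the text, were less uniform.

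The direct target of rapamycin and its binding protein gave no call in either fit. Fkbp1a, which encodes FKBP12, was at 672, 241 and 267 CPM in rapamycin oocytes, 251 and 321 CPM in aged oocytes and 212 and 170 CPM in young oocytes. Per kilobase of exon it was the most abundant of the 15 FK506-binding proteins, at a mean of 102 CPM per kb in rapamycin and 74.2 CPM per kb in aged oocytes. Mtor itself was at 7.53, 31.6 and 38.1 CPM in rapamycin oocytes, 73.0 and 40.5 CPM in aged oocytes and 26.4 and 29.4 CPM in young oocytes. All rapamycin libraries lay below both aged ones, an order that held for 13.9% of all genes tested. The log2 fold change of -1.13 ± 0.63 with all libraries and of -0.68 ± 0.33 without rapamycin 1 did not pass (edgeR adjusted p = 0.730 and 0.362).

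Subunits of the mTOR complexes were mostly low or level. Rptor, the scaffold of mTORC1, was at 3.76, 2.38 and 10.4 CPM in rapamycin oocytes and 9.70 and 6.74 CPM in aged oocytes. Rictor, the scaffold of mTORC2, was at 95.2, 106 and 86.9 CPM in rapamycin oocytes and 76.0 and 123 CPM in aged oocytes, with full overlap. Mlst8, a subunit of both complexes, did not exceed 1.62 CPM in any library and did not pass the filter. Of 12 listed subunits 9 were tested, 3 above 0 and 6 below with a median log2 fold change of -0.05, and 1 above and 8 below with a median of -0.34 without rapamycin 1. The median over all genes tested was 0.01 with all libraries and 0.02 without rapamycin 1.

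Upstream and downstream of the kinase the values also crossed. Tsc1 and Tsc2, the complex that holds mTORC1 back, stood at 89.0, 35.4 and 44.1 CPM and at 20.2, 32.6 and 31.3 CPM in rapamycin oocytes, against 49.6 and 55.7 CPM and 23.2 and 33.5 CPM in aged oocytes. Rheb, the GTPase that activates mTORC1, was at 26.6, 223 and 305 CPM in rapamycin oocytes and 251 and 275 CPM in aged oocytes, so rapamycin 1 alone was low. The mTORC1 substrates Rps6kb1 (49.5, 70.6 and 57.6 CPM in rapamycin, 66.8 and 94.2 CPM in aged oocytes) and Ulk1 (29.0, 22.9 and 20.2 CPM in rapamycin, 20.8 and 27.0 CPM in aged oocytes) overlapped between groups. Eif4ebp1, the repressor of cap-dependent translation that mTORC1 inactivates, was at 4.84, 3.57 and 5.27 CPM in rapamycin oocytes and 2.43 and 3.82 CPM in aged oocytes. Tfeb had 0 counts in all 7 libraries, while its relative Tfe3 was at 22.3, 69.5 and 89.5 CPM in rapamycin oocytes and 267 and 77.3 CPM in aged oocytes.

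Pathway members of small p included Prkab2, Pik3cb and Flcn. Prkab2, a subunit of the energy sensor AMPK, was at 4.03, 4.02 and 5.73 CPM in rapamycin oocytes and 14.8 and 10.1 CPM in aged oocytes (log2 fold change -1.43 ± 0.46 with all libraries, edgeR adjusted p = 0.730). Pik3cb, a catalytic subunit of phosphoinositide 3-kinase, was at 23.9, 11.8 and 7.38 CPM in rapamycin oocytes and 1.62 and 4.49 CPM in aged oocytes. For neither gene did the rapamycin and aged libraries overlap, and neither passed in edgeR in either fit or in DESeq2 with all libraries. Without rapamycin 1, DESeq2 gave them no adjusted p. In their list, growth factor and energy input, 3 of 26 tested members had all rapamycin libraries above both aged ones (11.5%) and 4 below (15.4%). Among all genes tested the shares were 11.7% and 13.9%. Flcn, which signals amino acid supply to mTORC1 at the lysosome, was at 225, 119 and 140 CPM in rapamycin oocytes and 322 and 191 CPM in aged oocytes. DESeq2 called it lower without rapamycin 1 (adjusted p = 0.0499). In the lists of growth factor and energy input (26 of 29 tested), amino acid input (23 of 29) and mTORC1 and mTORC2 substrates (18 of 23), edgeR called 0 members in either fit, and medians were 0.002, -0.28 and -0.29 with all libraries and -0.09, -0.03 and -0.38 without rapamycin 1.

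**Figure D3:**
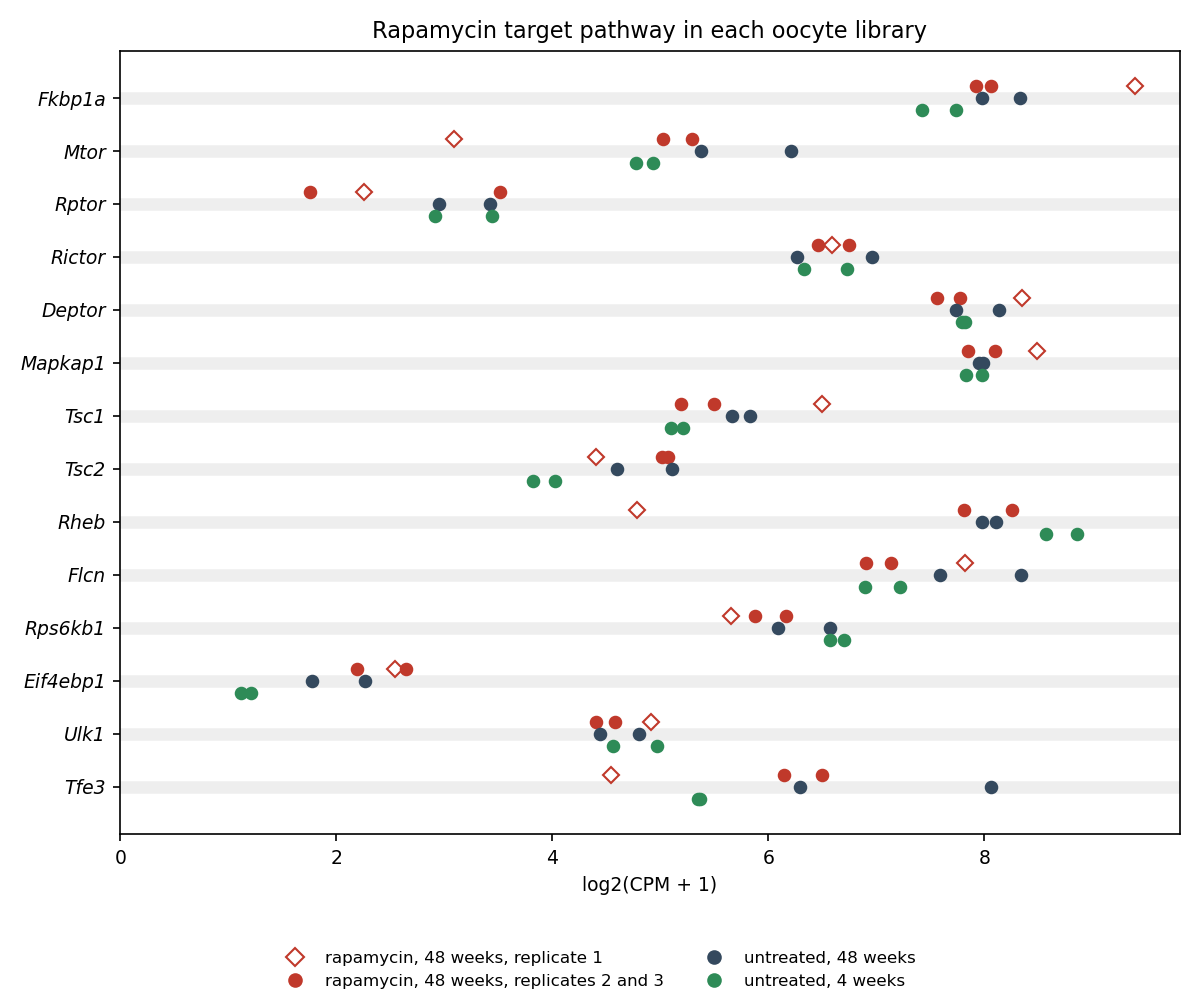
Level of the rapamycin-binding protein, of mTOR complex subunits and of genes up- and downstream of mTORC1, as log2(CPM + 1) on the horizontal axis, with rapamycin libraries in the upper, aged in the middle and young in the lower line of each gene. Each point is 1 library and the open diamond is rapamycin 1. For Mtor both aged libraries lie above all 3 rapamycin libraries, and for Rictor, Tsc2 and Ulk1 the groups overlap.

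Cytosolic ribosomal proteins, the protein part of the ribosome outside mitochondria, had every tested member on one side. Many of their mRNAs start with the pyrimidine run through which mTORC1 acts on translation, known as the TOP motif. Of 79 listed genes, 58 had a promoter window in the RefSeq table (GRCm38.p6), and in 14 of these (24.1%) the annotated start was a C followed by at least 4 bases that are C or T, read on the gene's strand, against 813 of 27025 windows of all genes (3.01%). The windows below run from 15 bases before to 15 bases from the annotated start of the 6 such genes with the smallest unadjusted p. The capitals mark the pyrimidine run from the annotated start onward. Bases before the start are in lower case, also where they are C or T.
Rps18 (chr17:33955651-33955680, minus strand): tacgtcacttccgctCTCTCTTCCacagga
Rpl35 (chr2:39005117-39005146, minus strand): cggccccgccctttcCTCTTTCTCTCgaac
Fau (chr19:6057932-6057961, plus strand): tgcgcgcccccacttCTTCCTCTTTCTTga
Rps6 (chr4:86857353-86857382, minus strand): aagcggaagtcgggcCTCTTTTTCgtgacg
Rps10 (chr17:27635230-27635259, minus strand): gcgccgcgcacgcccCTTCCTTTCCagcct
Rpl35a (chr16:33056467-33056496, plus strand): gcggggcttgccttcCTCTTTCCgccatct
The match describes the annotated start and says nothing of the start used in these oocytes.

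All 73 ribosomal protein genes that passed the filter lay above 0, with a median log2 fold change of 1.21 against 0.01 over all genes tested, and over the whole list 76 had a higher mean in rapamycin oocytes, 0 a lower one and 3 had 0 counts in both groups. In edgeR 0 members were called, with 15 of the 73 higher at an unadjusted p under 0.05, against 3.28% of all genes tested. For 42 of the 73 (57.5%) all rapamycin libraries lay above both aged ones, which held for 11.7% of all genes tested, the opposite order holding for 13.9%. Without rapamycin 1 all 74 tested members lay above 0, with a median of 0.77, and 51 (68.9%) did not overlap, against 23.2% of all genes. Summed over the list, the level was 2022, 1629 and 1934 CPM in rapamycin oocytes, 944 and 1155 CPM in aged oocytes and 1888.5 and 1736 CPM in young oocytes. Both aged libraries lay below the other 5, aged 1 lowest. Their mean log2(CPM + 1), centred on the 7 libraries, was 1.02, 0.10 and 0.15 in rapamycin oocytes, -0.87 and -0.38 in aged oocytes and 0.08 and -0.10 in young oocytes, so rapamycin 1 stood far above the rest on this scale.

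Rps7, of the small subunit, was at 20.4, 12.5 and 12.2 CPM in rapamycin oocytes, 3.50 and 4.94 CPM in aged oocytes and 13.3 and 16.8 CPM in young oocytes, and its log2 fold change over aged was 1.82 ± 0.49 (edgeR adjusted p = 0.730), or 1.55 ± 0.40 (edgeR adjusted p = 0.226) without rapamycin 1. Rpl5, which carries 5S rRNA into the large subunit, was at 30.4, 39.2 and 26.5 CPM in rapamycin oocytes and 12.7 and 15.3 CPM in aged oocytes. It was the 1 member that DESeq2 called without rapamycin 1 (adjusted p = 0.0477). Among the genes with the sequences above, Rps18 stood at 27.2, 3.72 and 5.12 CPM against 1.08 and 1.80 CPM in aged oocytes, and Fau, a ribosomal protein fused to a ubiquitin-like one, at 37.1, 39.0 and 39.5 CPM against 22.1 and 23.4 CPM. Many of these genes have processed copies in the genome, and reads without a unique position were kept in a summary row and not in the genes. The share of such reads, relative to gene counts and summary rows together, was 15.9%, 13.4% and 12.9% in rapamycin and 10.0% and 12.2% in aged libraries. Its part in the result was not tested.

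Lists that work with the ribosome were nearer to the background. Ribosome biogenesis factors had 25 of 41 tested members above 0 (median log2 fold change 0.28) and 29 of 41 without rapamycin 1 (median 0.36), where 22 (53.7%) lay above both aged libraries, against 23.2% of all genes. Npm1, a nucleolar chaperone of ribosome assembly, was at 878, 1083 and 874 CPM in rapamycin oocytes, 642 and 635 CPM in aged oocytes and 1226 and 1181 CPM in young oocytes. Ddx18, a nucleolar helicase, was at 19.4, 227 and 232 CPM in rapamycin oocytes and 119 and 129 CPM in aged oocytes, and DESeq2 called it higher without rapamycin 1 (adjusted p = 0.0238), as it did Gnl3 (adjusted p = 0.0465). Translation factors had 28 of 43 members above 0 and a median of 0.11 (0.21 without rapamycin 1). Eif4h, which stimulates the helicase eIF4A, was at 8.60, 8.78 and 6.93 CPM in rapamycin oocytes and 1.08 and 2.02 CPM in aged oocytes (log2 fold change 2.35 ± 0.59, edgeR adjusted p = 0.730). In edgeR 0 members of either list were called in either fit.

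Mitochondrial protein synthesis and the respiratory chain lay on the same side. Of 71 nuclear-encoded respiratory chain subunits tested from 77 listed, 59 were above 0 with a median log2 fold change of 0.59, and 28 (39.4%) had all rapamycin libraries above both aged ones, against 11.7% of all genes. Without rapamycin 1 the count was 63, the median 0.55 and 42 (59.2%) did so, against 23.2% of all genes. Cox7a2l, which helps respiratory complexes assemble into larger ones, was at 43.5, 37.5 and 17.6 CPM in rapamycin oocytes and 5.93 and 9.21 CPM in aged oocytes, and DESeq2 called it higher without rapamycin 1 (adjusted p = 0.0210). Ndufa12, an accessory subunit of complex I, was at 6.99, 1.79 and 1.36 CPM in rapamycin oocytes and had no count in either aged library, a level at least 7.49-fold higher, or 4.28-fold without rapamycin 1. Cox8a, a small subunit of cytochrome oxidase, was at 905, 325 and 290 CPM in rapamycin oocytes and 134 and 220 CPM in aged oocytes. Of 69 mitochondrial ribosomal proteins tested, 54 were above 0 (median 0.33), and 57 without rapamycin 1 (median 0.43). Mrpl16 stood at 32.3, 16.1 and 11.1 CPM against 2.43 and 5.62 CPM in aged oocytes, and Mrpl53 at 22.3, 21.4 and 21.7 CPM against 9.97 and 9.44 CPM. EdgeR called 0 members of both lists in both fits.

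Proteasome subunits had 22 of 29 members above 0 (median log2 fold change 0.33) and 23 without rapamycin 1 (median 0.48). All rapamycin libraries lay above both aged ones for 6 members (20.7%, against 11.7% of all genes), and for 18 (62.1%, against 23.2%) without rapamycin 1. Rapamycin 1 went the other way on the level scale, at -0.57, where rapamycin 2 and 3 had 0.15 and 0.20 and the aged libraries -0.32 and -0.19. Psmd12, a lid subunit, was at 11.8, 171 and 116 CPM in rapamycin oocytes, 46.4 and 60.9 CPM in aged oocytes and 186 and 181 CPM in young oocytes, and DESeq2 called it higher without rapamycin 1 (adjusted p = 0.00133). Psmd3 differed, at 400, 124 and 153 CPM in rapamycin oocytes and 299 and 196 CPM in aged oocytes.

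**Figure D4:**
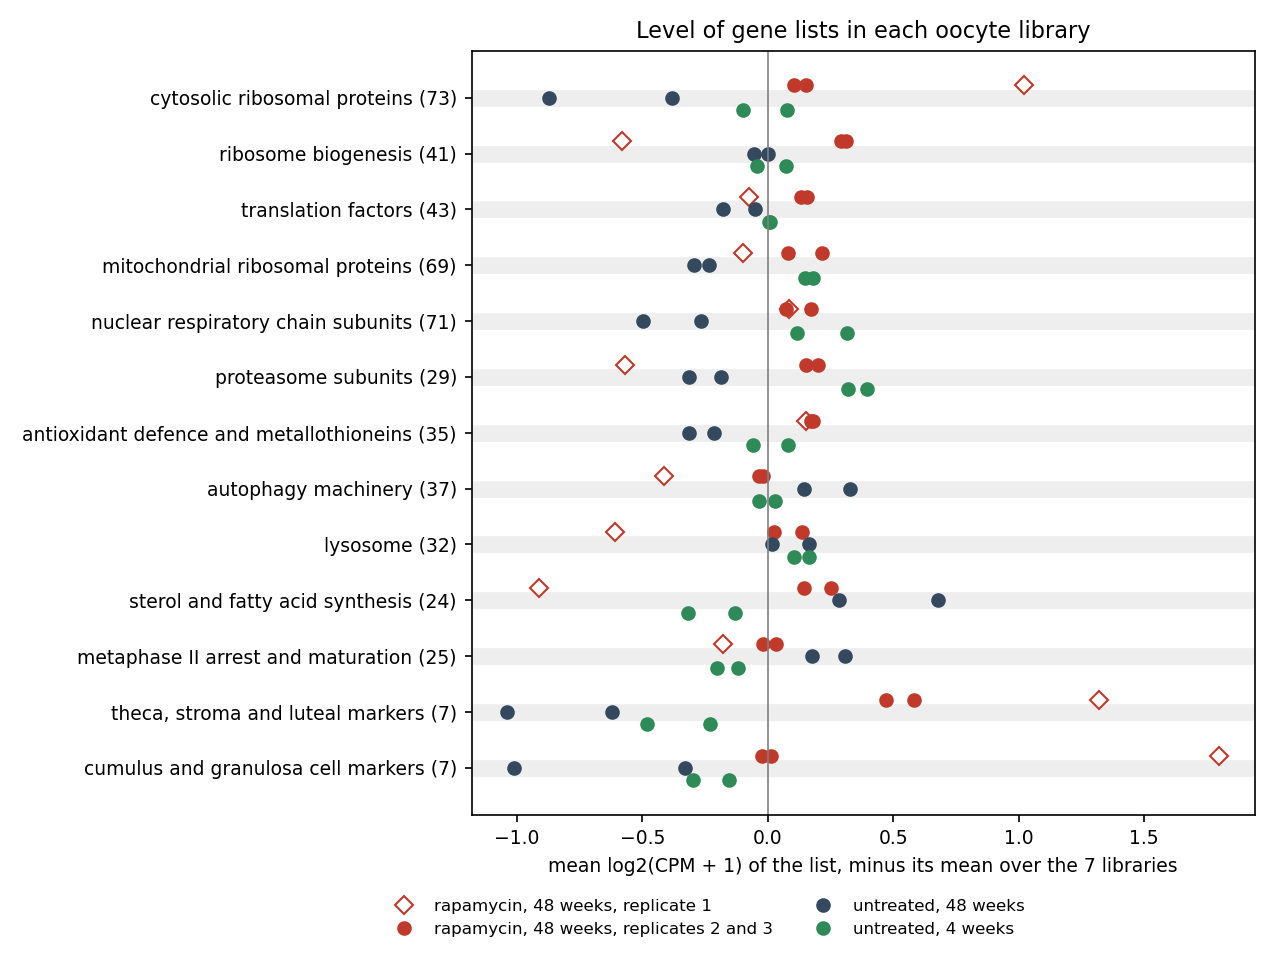
Level of 13 gene lists in each oocyte library, as the mean log2(CPM + 1) of the members tested, with their number in parentheses, minus the mean over the 7 libraries, with rapamycin libraries in the upper, aged in the middle and young in the lower line of each list. Each point is 1 library and the open diamond is rapamycin 1. For the ribosomal protein, mitochondrial ribosomal protein and respiratory chain lists all 3 rapamycin libraries lie above both aged ones, while for ribosome biogenesis, proteasome and sterol synthesis rapamycin 1 is the lowest of all.

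The autophagy machinery, which mTORC1 restrains, lay on the lower side. Of 43 listed genes 37 were tested, 14 above and 23 below 0 with a median log2 fold change of -0.36. Without rapamycin 1 the counts were 11 and 26 with a median of -0.42, and 16 (43.2%) had both rapamycin libraries below both aged ones, against 22.6% of all genes tested. Pik3r4, the regulatory subunit of the lipid kinase Vps34, was at 9.41, 109 and 152 CPM in rapamycin oocytes, 336 and 242 CPM in aged oocytes and 85.9 and 103 CPM in young oocytes, and DESeq2 called it lower without rapamycin 1 (adjusted p = 0.0184). Vps39, a tethering factor of lysosome fusion, was at 82.5, 106 and 98.8 CPM in rapamycin oocytes and 242 and 124 CPM in aged oocytes. Optn, an autophagy receptor, ran the other way without rapamycin 1, at 3.49, 24.1 and 16.6 CPM in rapamycin and 4.85 and 8.32 CPM in aged oocytes.

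Lysosomal genes are often driven by TFEB and TFE3 through the CLEAR element, which contains the letters CACGTG. That hexamer, which reads the same on both strands, occurred in the 300-base RefSeq window, from 250 bases before to 50 from the start, of 15 of 36 lysosome genes (41.7%), 5 of 34 autophagy genes (14.7%) and 2187 of all 27025 genes (8.09%). The 5 lysosome and autophagy genes with the hexamer and the smallest unadjusted p without rapamycin 1 are shown, with the hexamer in capitals.
Mcoln1 (chr8:3500436-3500465, plus strand): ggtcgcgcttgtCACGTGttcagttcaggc
Gaa (chr11:119267811-119267840, plus strand): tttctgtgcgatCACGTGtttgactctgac
Ctsl (chr13:64370739-64370768, minus strand): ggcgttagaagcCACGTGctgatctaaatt
Ctsd (chr7:142388055-142388077, minus strand): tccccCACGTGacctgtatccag
Naglu (chr11:101070009-101070038, plus strand): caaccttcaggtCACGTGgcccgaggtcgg
A match is a run of letters and not a site of binding.

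These 5 genes differed in direction, and edgeR called none of them. Mcoln1, a lysosomal calcium channel, was at 20.4, 90.1 and 116 CPM in rapamycin oocytes, 244 and 159 CPM in aged oocytes and 120 and 154 CPM in young oocytes. Gaa, the acid glucosidase that digests glycogen, was at 4.30, 7.74 and 15.1 CPM in rapamycin oocytes and 48.0 and 23.4 CPM in aged oocytes, and its log2 fold change was -1.97 ± 0.64 (adjusted p in edgeR = 0.730). Ctsd, an aspartic protease, was at 16.1, 30.7 and 38.0 CPM in rapamycin and 66.3 and 48.3 CPM in aged oocytes. The cysteine protease Ctsl had the opposite order, at 26.1, 4.47 and 5.42 CPM in rapamycin oocytes and 0.539 and 0 CPM in aged oocytes, a ratio of 39.0 whose 95% counting interval ran over 10.6 to 324, and of 20.2 (5.37 to 170) without rapamycin 1. Among proton pump subunits, Atp6v1e1 was at 112, 96.0 and 57.1 CPM in rapamycin oocytes and 8.62 and 29.0 CPM in aged oocytes, and DESeq2 called it higher without rapamycin 1 (adjusted p = 0.0188). Atp6v1a, another subunit, had the opposite order, at 80.1, 86.0 and 83.8 CPM in rapamycin oocytes and 133 and 111 CPM in aged oocytes. Over the lysosome list 32 of 48 genes were tested, 11 above and 21 below 0 with a median of -0.35, and without rapamycin 1 the median was -0.07.

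Sterol and fatty acid synthesis had 6 of 24 tested members above 0 and 18 below (median log2 fold change -0.58), and 8 above and 17 below without rapamycin 1 (median -0.25). Insig1, which retains the sterol sensor in the endoplasmic reticulum, was at 90.1, 463 and 358 CPM in rapamycin oocytes, 927 and 620 CPM in aged oocytes and 755 and 799 CPM in young oocytes, and DESeq2 called it lower without rapamycin 1 (adjusted p = 0.0459). Scap, which encodes that sensor and takes part in activating SREBP factors, was at 60.8, 111 and 133 CPM in rapamycin oocytes and 375 and 140 CPM in aged oocytes. The level scale put rapamycin 1 at -0.91, rapamycin 2 and 3 at 0.14 and 0.25, and the aged libraries at 0.68 and 0.28.

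**Figure D5:**
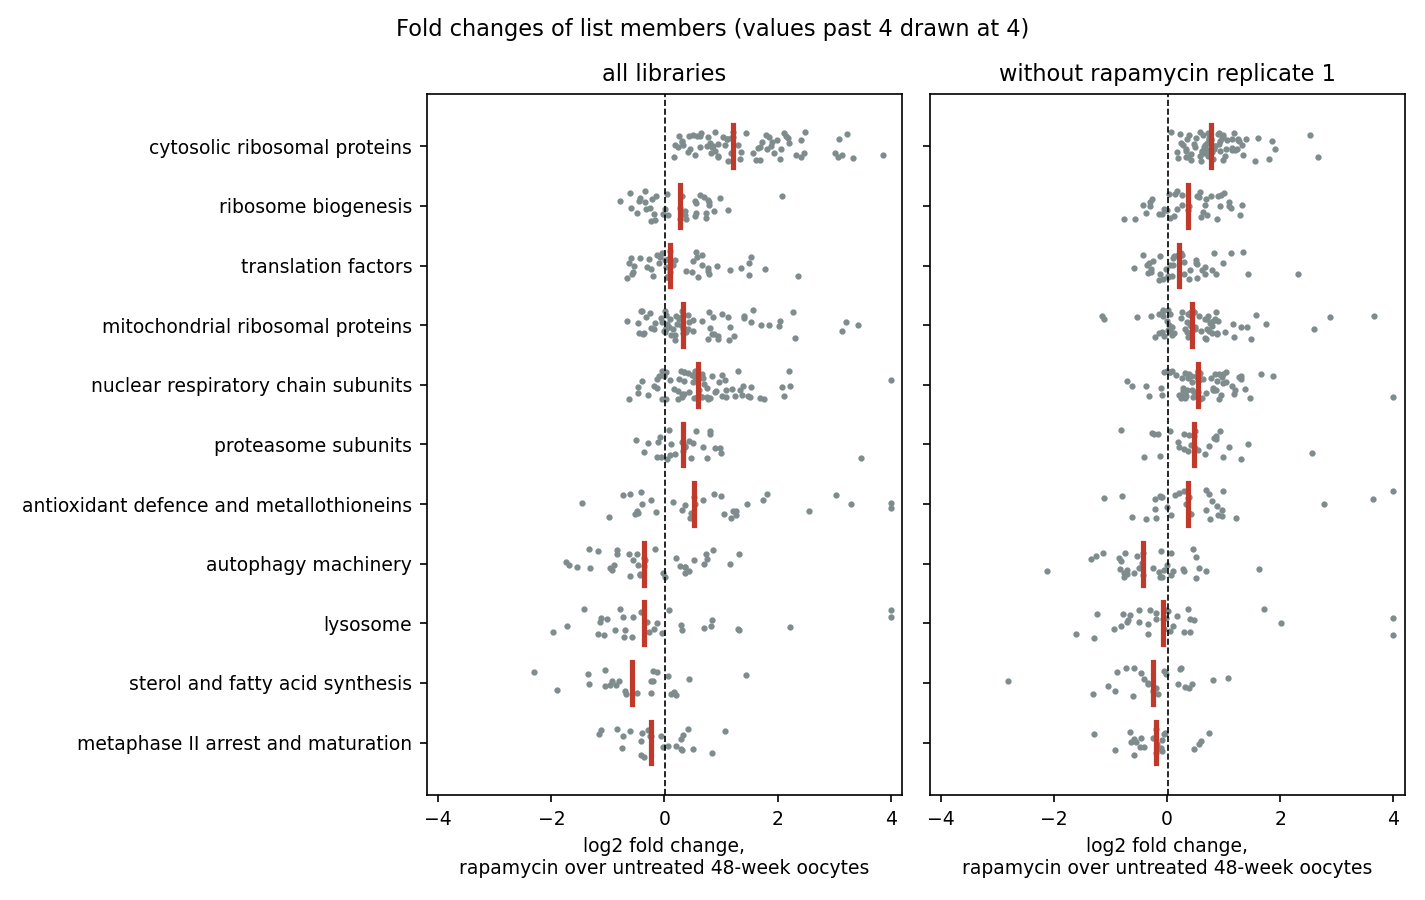
Log2 fold change of rapamycin over aged oocytes, on the horizontal axis, for the tested members of 11 gene lists, with all libraries on the left and without rapamycin 1 on the right. Each grey point is a gene, the red bar is the list's median and the dashed line the median over all genes tested. Every ribosomal protein lies right of 0 in both panels, while the medians of autophagy, lysosome, sterol synthesis and metaphase II arrest lie left of it.

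Stress and defence genes went both ways. Antioxidant genes and metallothioneins had 24 of 35 members above 0 (median log2 fold change 0.52), and 23 of 34 without rapamycin 1 (median 0.37). Hmox1, heme oxygenase, was at 4.57, 8.04 and 6.93 CPM in rapamycin oocytes and 0.809 and 1.35 CPM in aged oocytes (log2 fold change 2.56 ± 0.67, edgeR adjusted p = 0.730). Ftl1, the ferritin light chain, was at 66.4, 38.9 and 44.1 CPM in rapamycin oocytes and 18.6 and 17.8 CPM in aged oocytes, and Sod1, the cytosolic superoxide dismutase, was at 42.7, 93.5 and 99.9 CPM against 40.2 and 58.0 CPM, called higher by DESeq2 without rapamycin 1 (adjusted p = 0.0499). Heat shock proteins had 19 of 24 members above 0 (median 0.26), and 17 of 24 without rapamycin 1 (median 0.13). The integrated stress and unfolded protein responses had 24 of 29 below 0 (median -0.50), and 17 of 29 without rapamycin 1 (median -0.16). Eif2ak3, the stress kinase PERK, was at 6.18, 27.1 and 7.83 CPM in rapamycin oocytes and 26.1 and 57.5 CPM in aged oocytes. P4hb, protein disulfide isomerase, was at 21.8, 473 and 533 CPM in rapamycin oocytes and 836 and 812 CPM in aged oocytes. Sirtuins and senescence genes had 14 of 20 members above 0 with all libraries (median 0.38) and without rapamycin 1 (median 0.30). All rapamycin libraries lay above both aged ones for 30% of them, against 11.7% of all genes. Cdkn1b, the cell cycle inhibitor p27, was at 4.84, 12.7 and 8.44 CPM in rapamycin oocytes and 3.77 and 2.92 CPM in aged oocytes. EdgeR called 0 members of this list in either fit. DESeq2 without rapamycin 1 called 2 of the 20 higher and 1 lower, against 66 and 104 of all 10220 genes tested.

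The oocyte's own programme was lower for several of its secreted factors. Zona pellucida and oocyte-secreted factors had 5 of 16 tested members above 0 and 11 below (median log2 fold change -0.42), and 7 and 10 without rapamycin 1 (median -0.21). Gdf9, given above, was lower than aged in all 3 rapamycin libraries, and DESeq2 called it lower without rapamycin 1 (adjusted p = 0.0465; log2 fold change -0.72 ± 0.16 in edgeR, not called). Astl, the cortical granule protease ovastacin that cleaves ZP2 after fertilisation, was at 45.2, 224 and 343 CPM in rapamycin oocytes, 725 and 565 CPM in aged oocytes and 354 and 411 CPM in young oocytes, and DESeq2 called it lower without rapamycin 1 (adjusted p = 0.00905). Oosp2, an oocyte-secreted protein, ran the other way, at 14.8, 122 and 130 CPM in rapamycin and 55.8 and 76.2 CPM in aged oocytes (DESeq2 adjusted p = 0.0409 without rapamycin 1).

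Factors of metaphase II arrest and maturation lay below 0 in 15 of 25 members with all libraries (median log2 fold change -0.24) and in 21 of 25 without rapamycin 1 (median -0.19). Wee2, the oocyte kinase that inhibits CDK1, was at 2302, 928 and 904 CPM in rapamycin oocytes and 1373 and 1509.6 CPM in aged oocytes. Pkmyt1, the other inhibitory kinase, was at 85.5, 33.2 and 33.3 CPM against 112 and 55.5 CPM, and DESeq2 called it lower without rapamycin 1 (adjusted p = 0.0331). Gpr3, the receptor that keeps cyclic AMP high before maturation, was at 33.3, 49.3 and 60.0 CPM in rapamycin oocytes and 140 and 71.9 CPM in aged oocytes. The anaphase regulators Pttg1 (securin) and Nusap1 (a spindle microtubule protein) were higher in each rapamycin library than in each aged one. Pttg1 was at 4977, 4657 and 3922 CPM against 1538 and 2856 CPM in aged oocytes, and Nusap1 at 406, 422 and 368 CPM against 154 and 249 CPM. Both were named for their small p. In their list of cohesin, spindle and checkpoint genes, that order held for 5 of 48 tested members (10.4%, against 11.7% of all genes). The opposite order held for 13 members (27.1%, against 13.9% of all genes).

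For the genes named next, the rapamycin and aged libraries did not overlap, but they were named for their small p. Among all genes tested, 11.7% had all rapamycin libraries above both aged ones and 13.9% below. The same shares were 12.2% and 14.3% for chromatin enzymes and 13.3% and 24.4% for maternal mRNA control. They were 2.7% and 18.9% for maternal effect genes and 7.27% and 23.6% for DNA repair. Padi6, of the subcortical maternal complex, was at 338, 1219.7 and 1134 CPM in rapamycin oocytes, 2289 and 2043 CPM in aged oocytes and 1262 and 882 CPM in young oocytes (DESeq2 adjusted p = 0.0408 without rapamycin 1). Cpeb1, which directs cytoplasmic polyadenylation, was at 58.9, 171 and 219 CPM in rapamycin oocytes and 471 and 292 CPM in aged oocytes, and Dcp2, the decapping enzyme, was at 655, 432 and 244 CPM against 80.3 and 180 CPM. Tet1, which oxidises methylated cytosine, was at 2.42, 8.34 and 4.22 CPM in rapamycin oocytes, 1.08 and 0.899 CPM in aged oocytes and 7.63 and 9.66 CPM in young oocytes. Dnmt1, the maintenance DNA methyltransferase, was at 67.5, 606 and 677 CPM in rapamycin oocytes and 1378 and 795 CPM in aged oocytes. Of DNA repair genes, Trp53bp1, which steers repair of double-strand breaks, was at 264, 200 and 355 CPM against 903 and 415 CPM in aged oocytes. Bard1, the partner of BRCA1, was at 25.3, 44.7 and 59.7 CPM against 16.4 and 22.2 CPM. Medians with all libraries, and without rapamycin 1 after them, were 0.10 and 0.02 for maternal effect genes, -0.07 and -0.12 for maternal mRNA control, -0.04 and -0.01 for chromatin enzymes, -0.13 and -0.005 for DNA repair and -0.01 and -0.03 for cohesin and spindle. They were -0.21 and -0.08 for replication licensing, 0.01 and 0.01 for central carbon metabolism and 0.03 and -0.06 for nucleotide and one-carbon synthesis. With all libraries edgeR called 0 members of these lists, and without rapamycin 1 it called Gmnn and Tktl2. DESeq2 without rapamycin 1 called 1 member higher and 4 lower of maternal mRNA control (45 members passed the filter) and 1 lower of maternal effect genes (37). It called 1 higher and 1 lower of DNA repair (56) and 2 higher of cohesin and spindle (48). It also called 1 higher of replication licensing (25) and 1 higher of central carbon metabolism (38). Of all 10220 genes that passed the filter, it called 66 higher and 104 lower. These were 1.3% and 2.05% of the 5068 genes to which it gave an adjusted p, a narrower base than the member numbers above.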

How the data were processed

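Each deposited file holds the counts of reads per gene of 1 library, with no normalization. Per the submitters' processing notes, the tools were STAR and HTSeq and the build mm10. No source used here gives their versions, the annotation or the strand setting, so genes that overlap on opposite strands could not be told apart. Each file has 24491 gene symbols, and its 5 summary rows entered neither library sizes nor tests. Set against gene counts and summary rows together, reads outside genes came to 6.09% to 9.32%. Reads without a unique position came to 10.0% to 15.9% and ambiguous reads to 1.26% to 1.48%.

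Genes that passed filterByExpr were scaled with trimmed-mean (TMM) factors and tested in edgeR (quasi-likelihood F-test, 3 groups in 1 fit, Benjamini-Hochberg adjustment over all genes, threshold 0.05). The fit was repeated without rapamycin 1. Levels are CPM of the fit with all libraries, and printed errors are standard errors of the log2 fold change. DESeq2 was run on the same libraries, and a gene it gives no adjusted p stays without one. List levels use log2(CPM + 1). A fold against 0 uses 3 counts over the group, and a fold against 1 to 3 counts has its 95% counting interval, which covers counting error only. For gene lists, counts and medians are given with no test. Summed values of 3 against 2 libraries could not pass 0.05 in an exact permutation test and were left untested.

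The members, the 33 gene lists and the tests were chosen with earlier results of these data known. The text names genes called in either fit, else up to 10 a direction of smallest unadjusted p with no overlap and an average log2 CPM of 2 or more, those called by DESeq2 (up to 10 a direction), a set of mTOR pathway genes, up to 4 members a list of smallest unadjusted p and defining markers. The genes at 0 in 1 group, Rps18, Fau, Ctsd, Oaf and the markers high in rapamycin 1 fall outside that rule and were named after their values were seen. Not every gene the rule takes is described, and some are not reported here.

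Gene positions are from GENCODE M21 on GRCm38, the assembly of mm10. Of 10327 genes tested in either fit, 10032 (97.1%) matched. Sequences are from RefSeq windows of GRCm38.p6. The code was tested on simulated counts with known changes. No pair of replicates agreed within counting noise (chi-square per degree of freedom at least 16.3). The 10 hippocampus libraries of the series were not used. Alternatives were another scaling, other filters, a fit of the 2 groups alone, a replicate block, robust dispersions, DESeq2, thinning to 3912163 counts and leaving out each library. Tests ran in edgeR 4.0.16 (with limma 3.58.1) and DESeq2 1.42.0 under R 4.3.3, and tables and figures in pandas 2.3.3 and matplotlib 3.10.9 under Python 3.11.15.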

Additional observations from a re-analysis of the deposited data

How the results depend on the processing

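With all libraries, the count of 0 in edgeR was 11 with no filter on low counts (5 higher, 6 lower) and 11 in DESeq2, and it was 0 with relative log expression scaling, a mean of at least 10 CPM, robust dispersions, only the rapamycin and aged libraries, and thinning. Leaving out 1 library gave 0 to 6 calls, the 6 without rapamycin 1. The fit with the replicate block called 0 as well. For libraries of the same number, deviations from the group means had correlations from -0.10 to 0.01. In a group of 2 libraries such deviations mirror each other, so these values cannot tell whether the numbers pair the samples. Without rapamycin 1 the groups share 1 number, and no block was fitted.

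Without rapamycin 1, the count of 6 was 479 with no filter on low counts (254 higher, 225 lower), 170 in DESeq2 and 2 with only the rapamycin and aged libraries. Leaving out a further library gave 5 to 270 calls: 14 without rapamycin 2, 29 without rapamycin 3, 24 without aged 1, 270 without aged 2 and 5 without young 1 or young 2. The lone library of a group was then taken to vary like the others. Over the alternatives of that fit, Kcng2 was called in 13 of 13, Mtus2 and Slc14a1 in 12 of 13, Tktl2 in 11 of 13, Gmnn in 9 of 13 and Sparc in 7 of 12, always with the same sign.

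The median of the ribosomal protein list was 0.77 to 1.62 when 1 library was left out and that of the respiratory chain list 0.47 to 0.80. Autophagy was at -0.17 without aged 1, sterol synthesis at -0.18 without aged 1 and -0.25 without rapamycin 1, the lysosome at -0.07 without rapamycin 1, the stress responses at -0.16 without rapamycin 1, metaphase II arrest at -0.03 without aged 1 and -0.02 without rapamycin 3, ribosome biogenesis at 0.10 without rapamycin 2, translation factors at 0.02 and the proteasome at 0.21 without aged 1, and antioxidant genes at 0.96 without aged 2. Amino acid input to mTORC1 was at -0.03 without rapamycin 1. The mTOR complex median turned to 0.04 without rapamycin 3 and that of the mTORC1 and mTORC2 substrates to 0.02 without aged 1. Fold changes near 0 changed sign. Rictor was at 0.0386 with a mean of at least 10 CPM and 0.0534 with the replicate block, and at -0.38 to 0.31 when 1 library was left out. Tsc2 was at 0.0108 with relative log expression scaling, 0.0087 with no filter, 0.0124 in DESeq2, 0.0155 with only the rapamycin and aged libraries and 0.0666 with a mean of at least 10 CPM, and at -0.27 to 0.26 when 1 library was left out. Ulk1 was at -0.0036 after thinning and -0.19 to 0.18 when 1 library was left out. Leaving out 1 library gave -0.16 to 0.72 for Fkbp1a, -1.05 to 0.0241 for Rheb, -0.39 to 0.34 for Tsc1 and, from the fit without rapamycin 1, -1.71 to 0.0372 for Tfe3. In each case the cause was not tested. A group of 2 or 3 libraries and counts near the floor limit what could be called.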
